A study of Homo sapiens with 28 samples.

Results

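The androgen response described here is that of LNCaP cells given the synthetic androgen R1881 at 1 nM for 72 h, set against cells given only the vehicle, DMSO at 0.1%, for the same time. LNCaP is an androgen-responsive human prostate cancer line, labelled wild type in genotype. Cells of both groups had first been kept for 72 h in medium with charcoal-stripped serum, from which steroid hormones have been removed, so the vehicle group is an androgen-deprived one. Total RNA was sequenced in 4 libraries per group, so 8 of the 28 libraries of the series carry this comparison. Groups that also received a CDK8/19 inhibitor enter only through the choice of genes tested, the scaling and the shared estimate of spread between replicates. Another 6 libraries, of a separate 24 h experiment with R1881 at 0.1 nM or vehicle, are used for 1 comparison at the end. The series uses 1 cell line and the labels do not say whether the replicates were separate cultures, so the p values measure the spread between these samples.

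Androgens act through a ligand-activated transcription factor of the nuclear receptor family. Without hormone it is held by heat shock protein chaperones, and with hormone it enters the nucleus, binds DNA elements together with pioneer factors such as FOXA1, and recruits coactivators. In the prostate it drives the secretory program of luminal cells, which includes the kallikrein proteases of seminal fluid, and it also shuts down other genes. In prostate cancer cells it supports lipid synthesis, protein secretion and proliferation as well.

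The 8 libraries held from 9846595 to 12560764 counts each, and their 10 most abundant genes took from 4.04 to 4.53% of them. Replicates lay close together, and the biological coefficient of variation over all genes was 2.38%. Genes were called higher or lower where the FDR (the false discovery rate of edgeR's quasi-likelihood test over all 16074 genes tested) was under 0.01 and the fold change was over 1.5. In 55.0% of genes tested the R1881 and vehicle libraries did not overlap at all, so a lack of overlap alone does not mark a gene. R1881 libraries had 1559 genes higher (9.70% of genes tested) and 1626 lower (10.1%) than vehicle libraries. With scaling to library totals only, the median of all genes shifted by -0.10 on the log2 scale and the split became 1299 higher and 2121 lower, so that 38.0% of the calls were higher instead of 48.9%. The called higher genes took 6.23% of the scaled counts with vehicle and 13.1% with R1881, and the called lower genes 5.99% and 2.71%. Of the calls, 253 higher and 202 lower genes differed by over 4-fold, and 77 higher and 17 lower by over 16-fold. All 10 markers of prostate luminal epithelium were present at a mean of at least 1 transcript per 1000000 (TPM, a level per length), with a sum of 4448 to 4479 TPM in vehicle libraries and 5637 to 5708 TPM in R1881 libraries. Markers of other cell types, with those of fibroblasts given further on, summed to under 3 TPM in every library. The 4 of basal epithelium summed to 0 TPM in vehicle libraries and to between 0.0912 and 0.583 TPM in R1881 libraries, with KRT5 at 0 counts in all 8. The 3 endothelial markers summed to between 0.253 and 0.521 TPM with vehicle and between 1.23 and 1.71 TPM with R1881, almost all of it VWF, with CDH5 at 0 counts. The 4 leukocyte markers summed to between 0.851 and 2.22 TPM with vehicle and between 1.18 and 1.43 TPM with R1881, with PTPRC and CD3E at 0 counts, and the 4 neuroendocrine markers to between 0.664 and 0.824 TPM and between 0.575 and 0.866 TPM, with INSM1 at 0 counts.

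The list of kallikreins and other secretory products had the highest median fold change of the gene lists, although a larger share of the mitosis list was called. Of its 35 tested members 28 rose and 3 fell, and the median log2 fold change was 2.67, or 2.61 with genes at the detection floor set to their bound, against 9.70% higher, 10.1% lower and a median of -0.01 over all genes tested. Its members are known androgen targets, many of them described in this cell line, so the direction of the list is not independent evidence. KLK2 (ENSG00000167751.13, chromosome 19, 50861568 to 50880567, plus strand, GRCh38) encodes a trypsin-like serine protease of seminal fluid. Its level, in counts per 1000000 (CPM, scaled by the TMM method), was 1.83, 1.98, 2.06 and 1.87 in the 4 vehicle libraries and 334, 344, 330.4 and 354 in the 4 R1881 libraries. The groups were far apart, with every R1881 library above every vehicle library, and the rise was 175-fold (log2 fold change 7.45 ± 0.16 (SE), edgeR FDR 2.31e-43). KLK3 (ENSG00000142515.16, chromosome 19, 50854915 to 50860764, plus strand), which encodes prostate-specific antigen, was at 1.22, 1.6, 1.54 and 1.4 CPM with vehicle and at 131, 134, 148 and 142 CPM with R1881. It too did not overlap between groups and rose 95.1-fold (log2 fold change 6.57 ± 0.18 (SE), edgeR FDR 5.31e-39). These genes are close paralogs, and reads that fit both cannot be told apart. KLK4, an enamel and prostate protease, rose from 14.1 ± 1.28 to 144 ± 5.0 CPM (SD, n = 4) and KLK15 from 0.375 to 2.57 CPM.

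The promoters of KLK3 and KLK2 are shown because these paralogs responded in the same way and carry the same element. The 300 bases span 250 bases before the RefSeq start (GRCh38.p14) to 50 after it, on the plus strand, at chr19:50854665-50854964 for KLK3 and chr19:50873189-50873488 for KLK2. Capitals mark a match to GAACANNNAGTGCT, an imperfect form of the receptor's inverted repeat. It lies 169 bases before the RefSeq start of KLK3 and 175 bases before that of KLK2. The RefSeq start of KLK2 lies inside the gene span given above for KLK2, past the first base of that span.

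KLK3: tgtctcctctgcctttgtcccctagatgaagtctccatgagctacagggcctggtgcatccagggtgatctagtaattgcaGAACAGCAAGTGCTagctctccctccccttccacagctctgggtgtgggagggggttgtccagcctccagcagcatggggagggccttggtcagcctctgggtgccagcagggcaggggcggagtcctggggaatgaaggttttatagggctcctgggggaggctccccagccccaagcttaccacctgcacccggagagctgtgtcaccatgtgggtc

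KLK2: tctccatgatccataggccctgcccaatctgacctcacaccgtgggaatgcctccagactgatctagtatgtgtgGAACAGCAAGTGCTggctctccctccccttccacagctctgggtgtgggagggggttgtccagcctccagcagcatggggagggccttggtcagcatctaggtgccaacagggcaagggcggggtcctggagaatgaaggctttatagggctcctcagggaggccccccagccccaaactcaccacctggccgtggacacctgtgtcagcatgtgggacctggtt

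The capitals are identical in both promoters. The letters searched are those of the KLK3-type element, so the match in KLK3 was given in advance. Among tested genes with a promoter, 4 had the motif: 2 called higher (KLK2 and KLK3), 1 called lower and 1 not called. The motif was present in 13 of 27305 RefSeq promoters of this length (0.0476%). The perfect palindrome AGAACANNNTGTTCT was present in 1 of them and in 0 of the 10968 tested genes with a promoter in the table. The single half-site AGAACA, searched on both strands, was in 9.05% of promoters of genes called higher, 9.96% of those called lower and 8.6% of those not called. Windows of this size leave out distal enhancers, where most of the receptor's binding is known to lie.

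Other classic targets rose in all 4 R1881 libraries. TMPRSS2 (ENSG00000184012.14, chromosome 21, 41464551 to 41531116, minus strand), a membrane serine protease whose promoter is often fused to ETS genes in prostate cancer, was at 16.2, 14.3, 16.3 and 14.7 CPM with vehicle and at 269, 259, 269.6 and 255 CPM with R1881. That was a 17.2-fold rise (log2 fold change 4.10 ± 0.06 (SE), edgeR FDR 9.18e-42). FKBP5 (ENSG00000096060.15, chromosome 6, 35573585 to 35728583, minus strand), a co-chaperone of steroid receptor complexes, was at 46.1, 49.4, 48.1 and 50.6 CPM with vehicle and at 715, 696, 705 and 700.1 CPM with R1881. Its groups were apart by 14.5-fold (log2 fold change 3.86 ± 0.03 (SE), edgeR FDR 4.63e-46). The solute carrier SLC45A3 rose from 38.4 ± 3.02 to 383 ± 5.35 CPM, the elongation factor ELL2 from 16.5 ± 1.11 to 105 ± 4.76 CPM and sorbitol dehydrogenase, SORD, from 338 ± 5.15 to 1379.8 ± 20 CPM. The list also had members that fell. ACP3, which encodes prostatic acid phosphatase, went from 32.6 ± 2.24 to 9.18 ± 1.12 CPM (log2 fold change -1.83 ± 0.09 (SE), edgeR FDR 1.97e-20), SERPINI1, a serine protease inhibitor, from 19.1 ± 0.787 to 5.85 ± 0.658 CPM (log2 fold change -1.69 ± 0.09 (SE), edgeR FDR 9.64e-20), and the non-coding PCA3 from 2.64 ± 1.48 to 0.895 ± 0.339 CPM.

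**Figure D1:**
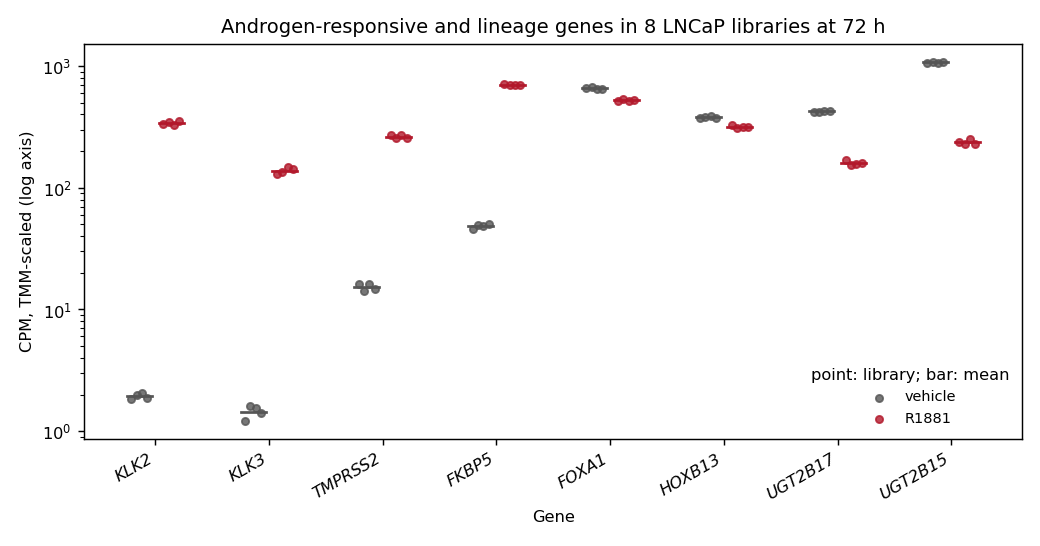
Level of 8 genes in each of the 8 libraries at 72 h (y axis, TMM-scaled CPM on a log axis; points, libraries; short bars, group means; grey, vehicle; red, R1881). KLK2, KLK3, TMPRSS2 and FKBP5 lie higher with R1881, UGT2B15 and UGT2B17 lie lower, and FOXA1 and HOXB13 differ little.

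The largest relative rises started from near the detection floor. STEAP4, a metalloreductase, had at most 1 count in any vehicle library and reached 12.2, 11.8, 12.1 and 11.5 CPM with R1881, which is at least 45.6-fold higher against a floor of 3 counts in a vehicle library. ALPK2, an alpha-kinase, was at least 39.6-fold higher and reached 10.3 ± 0.628 CPM. TARP, a transcript of the T cell receptor gamma locus that prostate cells express, was listed at 0 in all 4 vehicle libraries and was at least 16-fold higher, and it may share reads with its host locus. TUBA3D, an alpha-tubulin with a near-identical paralog that could share its reads, was at 0.348, 0.916, 0.429 and 0.546 CPM with vehicle and at 125, 111, 108 and 115 CPM with R1881. That was a 197-fold rise (log2 fold change 7.63 ± 0.30 (SE), edgeR FDR 1.84e-37). ST6GALNAC1, the sialyltransferase that makes the sialyl-Tn antigen, rose from 0.226 ± 0.0843 to 37.8 ± 2.1 CPM (log2 fold change 7.33 ± 0.44 (SE), edgeR FDR 3.87e-31). SLC38A4, a neutral amino acid transporter, rose from 0.12 ± 0.13 to 20 ± 1.62 CPM (log2 fold change 7.25 ± 0.61 (SE), edgeR FDR 1.37e-26). CCDC141 rose from 0.386 ± 0.109 to 49.9 ± 1.59 CPM (log2 fold change 6.97 ± 0.33 (SE), edgeR FDR 1.39e-33), and TRPM8, a cold-gated calcium channel of prostate epithelium, from 0.268 ± 0.139 to 34.6 ± 1.07 CPM (log2 fold change 6.97 ± 0.38 (SE), edgeR FDR 9.55e-32). All of these rises had non-overlapping groups.

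FOXA1 and HOXB13, which bind with the receptor, differed by less than 1.5-fold. FOXA1, the pioneer factor that opens chromatin for the receptor, was at 655 ± 11.1 CPM with vehicle and 524 ± 10.8 CPM with R1881 (log2 fold change -0.32 ± 0.02 (SE), edgeR FDR 1.16e-15), and HOXB13, a prostate homeobox factor, at 379 ± 6.98 and 317 ± 7.85 CPM (log2 fold change -0.26 ± 0.02 (SE), edgeR FDR 1.73e-11). Both were lower in every R1881 library than in every vehicle library, by 1.25-fold and 1.2-fold, which is under the fold limit of a call. Of the 22 tested genes of the list of receptor and pioneer factors, 6 rose (27.3%) and 3 fell (13.6%). Over all genes tested 9.70% were higher and 10.1% lower. The list's median log2 fold change was 0.03, which with library totals only was -0.07. Among the risers were the epithelial ETS factors SPDEF (69.9 ± 3.64 to 233 ± 4.7 CPM, log2 fold change 1.74 ± 0.03 (SE), edgeR FDR 1.95e-33) and EHF, the epithelial factor GRHL2, the membrane-bound factor CREB3L4 and PIAS1. The fallers, PGR, NR2F1 and HNF4G, were all rare. PGR, the progesterone receptor, was at 1.12 ± 0.304 CPM with vehicle and was at least 3.57-fold lower with R1881, and NR2F1, an orphan nuclear receptor, went from 1.12 ± 0.191 to 0.215 ± 0.202 CPM (log2 fold change -2.40 ± 0.56 (SE), edgeR FDR 2.40e-05). Among 27 coregulators and chaperones, 2 rose (7.41%) and 1 fell (3.7%). The risers were FKBP5 and PIAS1, a SUMO ligase, and NCOA3, a p160 coactivator, fell (50.3 ± 2.34 to 31.9 ± 1.23 CPM). PIAS1 was just over the fold limit (58.2 ± 2.7 to 92.9 ± 4.33 CPM, log2 fold change 0.67) and fell short of it, at 0.57, with library totals only.

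Most androgen-conjugating enzymes of the UGT2B family moved in the opposite direction to the kallikreins. UGT2B15 and UGT2B17 attach glucuronic acid to testosterone and dihydrotestosterone and so inactivate them. UGT2B15 (ENSG00000196620.10, chromosome 4, 68646630 to 68670628, minus strand) was at 1059.5, 1077, 1059.5 and 1081 CPM with vehicle and at 239, 227, 251 and 228 CPM with R1881. The groups did not overlap, and the gene fell 4.53-fold (log2 fold change -2.18 ± 0.03 (SE), edgeR FDR 7.02e-39). UGT2B17 (ENSG00000197888.3, chromosome 4, 68537184 to 68568527, minus strand) was at 423, 421, 429 and 428 CPM with vehicle and at 168, 153, 156 and 161 CPM with R1881. It fell 2.68-fold (log2 fold change -1.42 ± 0.03 (SE), edgeR FDR 7.86e-33). UGT2B10 fell from 114 ± 2.81 to 26.7 ± 1.77 CPM (log2 fold change -2.09 ± 0.05 (SE), edgeR FDR 3.84e-32) and UGT2B11 from 614 ± 5.73 to 323 ± 5.59 CPM, and UGT2B7 and UGT2B4 fell from lower levels. UGT2B28 rose from 47.9 ± 2.31 to 73 ± 2.19 CPM (log2 fold change 0.61 ± 0.05 (SE), edgeR FDR 1.47e-14), a call lost with library totals only, where its log2 fold change was 0.50. Members of this cluster on chromosome 4 are near-identical, so how the authors' counting split their reads is uncertain. The remaining risers of the list were CYP11A1, the side-chain cleavage enzyme that starts steroid synthesis, which was at least 14.9-fold higher at 3.9 ± 0.472 CPM, the oxidase CYP3A5 (3.72 ± 0.325 to 7.85 ± 0.983 CPM, log2 fold change 1.08 ± 0.13 (SE), edgeR FDR 3.59e-09), the 5-alpha reductase SRD5A1 (55.3 ± 1.49 to 100.1 ± 3.44 CPM), HSD17B11 and the steroid sulfatase STS, whose log2 fold change of 0.68 became 0.58 and was no longer called with library totals only. In all, 6 of 21 genes of steroid metabolism rose and 6 fell (28.6% each, beside 9.70 and 10.1% of all genes tested), with a median of -0.04. Scaled to library totals alone, the counts were 4 and 8, with a median of -0.15.

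Other genes fell further or from higher levels. ABCA1, the sterol exporter that loads high-density lipoprotein, was at 19.6, 21.9, 19.5 and 21.9 CPM with vehicle and at 1.05, 1.16, 0.98 and 0.878 CPM with R1881, a 20.2-fold fall (log2 fold change -4.34 ± 0.22 (SE), edgeR FDR 1.06e-25). SI, the intestinal sucrase-isomaltase, was at 86.1, 90, 92.3 and 85.4 CPM with vehicle and at 6.59, 7.05, 5.79 and 6.5 CPM with R1881. It fell 13.6-fold (log2 fold change -3.77 ± 0.09 (SE), edgeR FDR 1.54e-34). PTPRB, a receptor tyrosine phosphatase, fell from 5.22 ± 1.07 to 0.242 ± 0.122 CPM (log2 fold change -4.34 ± 0.50 (SE), edgeR FDR 5.81e-15), and EPB41L4A from 5.68 ± 0.877 to 0.313 ± 0.135 CPM (log2 fold change -4.12 ± 0.37 (SE), edgeR FDR 1.25e-17). LRRC31 fell from 11.7 ± 0.834 to 0.722 ± 0.396 CPM, the secreted protein CCDC80 from 43.3 ± 1.95 to 3.15 ± 0.178 CPM, the adhesion protein AMIGO2 from 5.93 ± 0.572 to 0.442 ± 0.2 CPM and IL1RN, the interleukin-1 receptor antagonist, from 13.7 ± 1.44 to 1.13 ± 0.507 CPM, with log2 fold changes between -4.05 and -3.55. In absolute terms the largest fall in CPM was that of GRB10, an adaptor that restrains insulin receptor signalling, from 1393, 1406, 1397 and 1389 CPM with vehicle to 295, 300.1, 309.9 and 298 CPM with R1881 (log2 fold change -2.21 ± 0.02 (SE), edgeR FDR 9.94e-44). UGT2B15 came next, followed by the copine CPNE3 (1204 ± 16.8 to 472 ± 11.3 CPM, log2 fold change -1.35 ± 0.02 (SE), edgeR FDR 4.99e-36), FOLH1, which encodes prostate-specific membrane antigen (1407 ± 11.9 to 729 ± 11.6 CPM, log2 fold change -0.95 ± 0.02 (SE), edgeR FDR 1.95e-32), and PRUNE2 (1464 ± 81 to 807 ± 41.1 CPM, log2 fold change -0.86 ± 0.04 (SE), edgeR FDR 2.93e-20). PCA3, which also fell, is transcribed antisense within PRUNE2, and whether counting used strand is not given in the sources used here.

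Cholesterol synthesis and uptake genes rose together with a fall of sterol export. Of 36 tested genes 18 rose (50%, beside 9.70% of all genes tested) and 4 fell (11.1%, beside 10.1%). The median log2 fold change was 0.58. With library totals only 14 rises were left, without those of MVK, FDPS, SQLE and NSDHL. HMGCS1, the synthase that commits acetyl units to the pathway, was at 109, 111, 107 and 107 CPM with vehicle and at 249, 241, 244 and 248 CPM with R1881. The groups did not overlap, and the gene rose 2.26-fold (log2 fold change 1.18 ± 0.03 (SE), edgeR FDR 9.12e-30). SOAT1, which esterifies cholesterol for storage, rose from 41 ± 1.61 to 97.9 ± 2.42 CPM, FDFT1, squalene synthase, from 190.4 ± 4.95 to 373 ± 14.8 CPM, IDI1, the isomerase of isopentenyl diphosphate, from 64.2 ± 1.78 to 125 ± 5.14 CPM, LSS, lanosterol synthase, from 73.3 ± 1.75 to 137 ± 2.85 CPM and INSIG1, a sterol sensor partner, from 53.9 ± 0.656 to 129 ± 3.6 CPM. Beside ABCA1, the exporter ABCG1 (54.7 ± 2.3 to 18.8 ± 1.43 CPM, log2 fold change -1.54 ± 0.07 (SE), edgeR FDR 1.88e-22), INSIG2 and the sterol reductase TM7SF2 fell. The sterol regulatory element TCACNCCAC was found in 1 of 28 promoters of the list and in 1.08% of all tested genes' promoters.

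**Figure D2:**
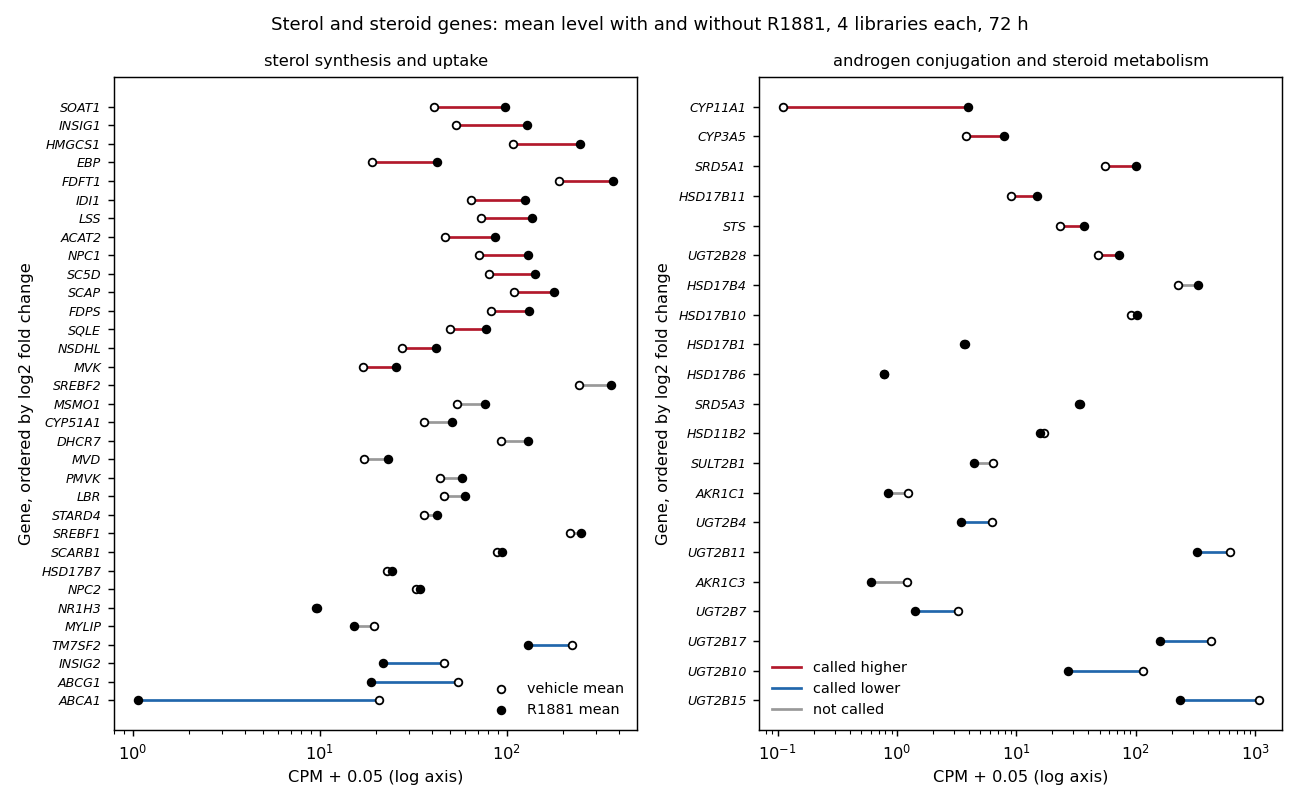
Mean level of genes of sterol synthesis and uptake (left) and of steroid metabolism (right) with vehicle (open circles) and with R1881 (filled circles), in CPM plus 0.05 on log axes, 4 libraries per group, ordered by log2 fold change. Red lines join genes called higher, blue lines genes called lower and grey lines genes not called. The longest lines are those of ABCA1 and CYP11A1, the second of which was near 0 counts with vehicle.

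Fatty acid genes were mixed, with 12 of 45 higher (26.7%, beside 9.70% of all genes tested) and 3 lower (6.67%, beside 10.1%). Their median was 0.17. Elongases of long-chain fatty acids stood out among the risers, with ELOVL2 from 0.564 ± 0.267 to 7.24 ± 0.319 CPM (log2 fold change 3.64 ± 0.27 (SE), edgeR FDR 1.07e-18), ELOVL7 from 11.5 ± 0.562 to 131 ± 6.58 CPM and ELOVL5 from 183 ± 4.05 to 579 ± 14.6 CPM. ACSL3, which activates fatty acids, rose from 142 ± 3.73 to 839.9 ± 12.3 CPM. The desaturase FADS1 rose from 74 ± 3.77 to 127 ± 2.45 CPM and fatty acid synthase, FASN, from 1231 ± 37.6 to 1846 ± 138 CPM. FASN lay at the fold limit, with a log2 fold change of 0.59, or 0.48 and no call with library totals only. The dehydrogenase ACADL was listed at 0 with vehicle and was at least 4.85-fold higher. EHHADH of peroxisomal oxidation and the desaturase SCD5 fell to 15.3 ± 0.805 and 15.7 ± 0.2 CPM, from 27.4 ± 1.78 and 27.3 ± 0.737. ABHD2, a serine hydrolase, is outside the list and was among the 5 largest rises in CPM, from 301 ± 7.29 to 1701 ± 48.2 CPM (log2 fold change 2.50 ± 0.03 (SE), edgeR FDR 1.58e-40).

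Polyamine synthesis responded at its key steps. ODC1, which makes putrescine and is the rate-limiting enzyme, was at 366, 369, 375 and 355 CPM with vehicle and at 1517, 1500.2, 1541 and 1482 CPM with R1881. It rose 4.13-fold (log2 fold change 2.04 ± 0.02 (SE), edgeR FDR 1.09e-41). SMS, spermine synthase, rose from 131 ± 4.43 to 496 ± 14.8 CPM (log2 fold change 1.92 ± 0.03 (SE), edgeR FDR 6.56e-37), SAT1, the acetylase of polyamine catabolism, from 77.1 ± 2.97 to 212 ± 8.06 CPM and AMD1, which supplies the aminopropyl donor, from 616 ± 12.8 to 993 ± 13.6 CPM. The other 17 of 21 genes of the list were not called and none fell. The share that rose was 19%, beside 9.70% of all genes tested, and the median was 0.14.

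The secretory pathway shifted upward in small steps. Of 48 genes of endoplasmic reticulum folding and the unfolded protein response 14 rose and 1 fell (median 0.33). Of 45 genes of transport to the Golgi 9 rose and 0 fell (median 0.30). The shares that rose were 29.2 and 20%, beside 9.70% of all genes tested. With library totals only 11 of the 14 rises and 4 of the 9 were left. ERN1, the stress sensor kinase, rose from 21.1 ± 0.921 to 61.8 ± 1.96 CPM (log2 fold change 1.55 ± 0.06 (SE), edgeR FDR 1.34e-23), and SEC11C, a signal peptidase subunit, from 52.7 ± 2.66 to 152 ± 8.46 CPM (log2 fold change 1.53 ± 0.04 (SE), edgeR FDR 5.44e-28). DDIT3, the pro-apoptotic factor of the same response, fell from 13.6 ± 1.98 to 7.72 ± 0.804 CPM (log2 fold change -0.80 ± 0.11 (SE), edgeR FDR 5.06e-08). SEC24D, a coat protein of vesicles, and the Golgi tether GOLGB1 led the transport list at 58 ± 2.18 and 442 ± 29.8 CPM, from 30.3 ± 1.41 and 261 ± 12.3. The stress element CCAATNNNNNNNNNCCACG, which contains the CCAAT box, was in 7 of 44 promoters of the folding list against 0.128% of all tested genes' promoters. Over all genes called higher it was in 1 of 1116 promoters (0.0896%), so at most 1 of the 7 was called higher. It was in 0 of 1034 promoters of genes called lower and in 13 of 8818 of those not called (0.147%).

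Sugar and amino acid supply changed gene by gene. Of 43 glycosylation enzymes 13 rose (30.2%, beside 9.70% of all genes tested) and 6 fell (14%, beside 10.1%). With library totals only 8 rises were left. UAP1, which makes the activated N-acetylglucosamine donor, rose from 89.9 ± 2.76 to 372 ± 4.35 CPM (log2 fold change 2.05 ± 0.03 (SE), edgeR FDR 1.61e-38), while the sialyltransferase ST6GALNAC4 and the O-glycosylation enzyme GALNT3 fell to 2.72 ± 0.387 and 28.1 ± 2.38 CPM, from 9.37 ± 0.224 and 65.8 ± 1.76. Of 24 amino acid transporters 7 rose (29.2%) and 4 fell (16.7%). Among leucine carriers SLC43A1 rose from 20.9 ± 0.443 to 60.3 ± 2.02 CPM (log2 fold change 1.53 ± 0.05 (SE), edgeR FDR 1.81e-25) and SLC7A5 fell from 10.4 ± 1.4 to 2.9 ± 0.485 CPM (log2 fold change -1.85 ± 0.14 (SE), edgeR FDR 2.93e-15). SLC38A3, a glutamine carrier, fell from 1.2 ± 0.302 to 0.411 ± 0.158 CPM. Of 40 genes of amino acid synthesis and tRNA charging 4 rose, or 10% beside 9.70% of all genes tested, and 2 with library totals only. Among them were VLDLR (18.4 ± 0.721 to 46.6 ± 1.48 CPM), a lipoprotein receptor, and SHMT1 (55.8 ± 1.39 to 99 ± 4.45 CPM), a folate enzyme. The folate dehydrogenase ALDH1L2 (1.21 ± 0.298 to 0.499 ± 0.152 CPM) was the 1 that fell.

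Proliferation genes rose nearly throughout their lists. Of 72 tested genes of mitosis, spindle and kinetochore 70 rose and 0 fell, with a median log2 fold change of 1.46. Of 61 genes of DNA replication 46 rose and 0 fell, with a median of 0.98. Over all genes tested 9.70% were higher and 10.1% lower. At FDR under 0.05 with no fold limit 0 mitosis and 1 replication genes were lower. The mitosis list took between 0.153 and 0.164% of the scaled counts in vehicle libraries and between 0.477 and 0.502% in R1881 libraries. In bulk RNA, more cells in cycle and more RNA per cycling cell cannot be told apart. RRM2, the regulated subunit of ribonucleotide reductase, was at 32.4, 35.7, 32.8 and 34.1 CPM with vehicle and at 155, 152, 159 and 147 CPM with R1881. It rose 4.53-fold (log2 fold change 2.18 ± 0.05 (SE), edgeR FDR 8.67e-33). CDC45, part of the replicative helicase, rose from 5.79 ± 0.451 to 25.9 ± 1.54 CPM (log2 fold change 2.15 ± 0.09 (SE), edgeR FDR 2.31e-23), and the proliferation marker MKI67 from 32.9 ± 2.02 to 112 ± 10.5 CPM. CDK1, the mitotic kinase, rose from 100.4 ± 2.49 to 267 ± 9.81 CPM and TOP2A, the topoisomerase of chromosome separation, from 49.6 ± 3.64 to 146 ± 6.09 CPM. NCAPD3, a condensin II subunit, and CENPN, a centromere protein, led the mitosis list and also belong to the list of secretory and androgen-induced genes. NCAPD3 was at 84.1, 83.1, 91.6 and 82.7 CPM with vehicle and at 1157, 1229, 1195 and 1167 CPM with R1881, a 13.9-fold rise (log2 fold change 3.80 ± 0.03 (SE), edgeR FDR 6.18e-45). CENPN rose from 19.4 ± 0.751 to 164 ± 6.24 CPM (log2 fold change 3.08 ± 0.05 (SE), edgeR FDR 1.28e-37).

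Known cell cycle elements were searched for in the promoters of both lists. The E2F site, searched as TTTGGCGC, TTTCCCGC, TTTGCCGC or TTTCGCGC on both strands, was in 20 of 52 replication promoters (38.5%), in 8.33% of mitosis promoters and in 5.36% of the promoters of all tested genes. The cell cycle homology region TTTGAA, which recruits the repressor complex of resting cells, was in 43 of 60 mitosis promoters (71.7%), in 7.69% of replication promoters and in 9.33% of all. Over all genes called higher the shares were 8.15% for the E2F site and 16.2% for TTTGAA, and over genes called lower 2.51 and 10.6%. The CCAAT box was in 70% of mitosis and 57.7% of replication promoters against 37.2% of all. The following windows show the match nearest the start, in capitals, with up to 20 bases on each side, in the 4 replication genes with the largest rise among those with an E2F site (CDC6, chr17:40287866-40287913, plus strand; CLSPN, chr1:35769956-35770003, minus strand; GINS2, chr16:85688958-85689005, minus strand; TYMS, chr18:657594-657641, plus strand; RefSeq, GRCh38.p14).

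CDC6: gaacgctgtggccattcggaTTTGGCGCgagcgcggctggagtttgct

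CLSPN: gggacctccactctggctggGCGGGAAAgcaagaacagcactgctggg

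GINS2: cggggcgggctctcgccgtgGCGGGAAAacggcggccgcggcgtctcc

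TYMS: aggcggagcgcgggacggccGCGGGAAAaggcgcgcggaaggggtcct

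CDC6 carries the first form of the site and the others the reverse complement of the second. CDC6, the loader of the replicative helicase, rose from 20.3 ± 0.584 to 75.6 ± 3.37 CPM (log2 fold change 1.90 ± 0.05 (SE), edgeR FDR 2.96e-29), and TYMS, thymidylate synthase, from 29.7 ± 1.1 to 93.9 ± 4.69 CPM (log2 fold change 1.66 ± 0.05 (SE), edgeR FDR 1.79e-26). The same is shown for the 5 mitosis genes with the largest rise among those with TTTGAA, each at the match nearest the start (CENPN, chr16:81007197-81007242, plus strand; SKA1, chr18:50375060-50375095, plus strand; SPC25, chr2:168890408-168890453, minus strand; ANLN, chr7:36389822-36389867, plus strand; NCAPG, chr4:17810924-17810969, plus strand).

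CENPN: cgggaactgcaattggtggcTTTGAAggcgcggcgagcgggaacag

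SKA1: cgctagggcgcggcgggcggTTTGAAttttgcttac

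SPC25: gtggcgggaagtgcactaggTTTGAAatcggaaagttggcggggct

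ANLN: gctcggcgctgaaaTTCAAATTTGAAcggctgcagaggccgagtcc

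NCAPG: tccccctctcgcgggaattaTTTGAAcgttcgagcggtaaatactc

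ANLN holds the element on both strands side by side. It encodes the cytokinesis scaffold anillin and rose from 17.1 ± 1.08 to 64.2 ± 1.97 CPM (log2 fold change 1.91 ± 0.06 (SE), edgeR FDR 1.98e-28). SPC25, a kinetochore subunit, rose from 2.79 ± 0.415 to 10.9 ± 1.83 CPM. A match describes letters and does not show that a factor bound there.

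Upstream of replication, 11 of 40 genes of G1 control rose (27.5%, beside 9.70% of all genes tested) and 2 fell (5%, beside 10.1%). Their median was 0.15. CDK6, a G1 kinase, rose from 1.52 ± 0.215 to 7.54 ± 1.03 CPM (log2 fold change 2.32 ± 0.19 (SE), edgeR FDR 5.58e-15), E2F7, a repressor of the E2F family, from 3.24 ± 0.551 to 14.2 ± 0.769 CPM (log2 fold change 2.12 ± 0.13 (SE), edgeR FDR 3.80e-18) and E2F1 from 14.4 ± 0.641 to 48.7 ± 3.2 CPM. CCNG2, a cyclin linked to cell cycle arrest, fell from 147 ± 2.88 to 80.2 ± 3.6 CPM (log2 fold change -0.88 ± 0.04 (SE), edgeR FDR 1.08e-20), and MXI1, a MYC antagonist, from 111 ± 1.07 to 67.5 ± 2.4 CPM (log2 fold change -0.72 ± 0.04 (SE), edgeR FDR 2.78e-19). Of 43 genes of homologous recombination 23 rose (53.5%, median 0.65), and 20 rises were left with library totals only. Among the risers were the motor protein RAD54L (8.16 ± 1.46 to 28.1 ± 1.5 CPM, log2 fold change 1.80 ± 0.09 (SE), edgeR FDR 3.57e-20) and the helicase BLM (3.64 ± 0.781 to 12.2 ± 1.08 CPM). BARD1, the ubiquitin ligase partner in the same pathway, was the 1 gene that fell. It was at 204, 199.6, 199 and 194 CPM with vehicle and at 63.6, 59.5, 55.7 and 49.5 CPM with R1881, with no overlap (log2 fold change -1.81 ± 0.04 (SE), edgeR FDR 1.33e-30). Of 27 tested replication-dependent histones, whose mRNAs lack a poly(A) tail, 1 rose, H4C3, though its groups overlapped and the call was lost without vehicle replicate 2 or R1881 replicate 4, and 1 fell, H2AC15 (4.79 ± 0.927 to 2.66 ± 0.858 CPM). The sources used here do not say how mRNA was selected for these libraries.

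Housekeeping machinery held few genes past the fold limit. None of 79 cytosolic ribosomal protein genes was called (median -0.0022), and at FDR under 0.05 with no fold limit, where 31.7% of genes tested were higher and 30.4% lower, 8 were higher and 15 lower. Of 65 genes of ribosome biogenesis 1 rose, MPHOSPH10 (43.2 ± 2.41 to 66.2 ± 2.49 CPM), a call lost with library totals only or without vehicle replicate 1, where its log2 fold change of 0.61 became 0.51 and 0.58. The helicase DDX18 fell from 156 ± 7.93 to 85.7 ± 1.86 CPM (log2 fold change -0.87 ± 0.04 (SE), edgeR FDR 3.67e-21). At FDR under 0.05 with no fold limit 42 genes of that list were higher and 6 lower. Of 77 nuclear genes of the respiratory chain the complex I subunit NDUFB4 alone was called, and it fell from 443 ± 4.61 to 273 ± 13.4 CPM (log2 fold change -0.70 ± 0.03 (SE), edgeR FDR 8.30e-23). At FDR under 0.05 with no fold limit 48 of them were higher and 1 lower, and 67 had a log2 fold change above 0 (median 0.11). Mitochondrially encoded genes were not analysed here. Of 36 proteasome subunits 2 rose (5.56%, beside 9.70% of all genes tested), PSMA6 and PSMD8 (log2 fold change 0.70 and 0.70), and 0 fell.

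Carbon metabolism had single strong responders. Of 56 genes of glycolysis and the TCA cycle 11 rose (19.6%, beside 9.70% of all genes tested) and 3 fell (5.36%, beside 10.1%). Their median was 0.23. MPC2, a subunit of the mitochondrial pyruvate carrier, was at 109.6, 113, 109.6 and 110.2 CPM with vehicle and at 603, 574, 579 and 584 CPM with R1881. It rose 5.28-fold with no overlap (log2 fold change 2.40 ± 0.03 (SE), edgeR FDR 1.88e-41). SLC2A3, a glucose transporter, was listed at 0 with vehicle and was at least 15.4-fold higher at 4.03 ± 0.398 CPM. IDH1, which makes NADPH, rose from 256 ± 4.8 to 760.1 ± 27.2 CPM and lactate dehydrogenase A, LDHA, from 360.3 ± 4.58 to 757 ± 17.9 CPM, while the enolase ENO2 and OGDHL fell to 23.1 ± 1.35 and 25 ± 1.51 CPM, from 43.4 ± 0.967 and 38.9 ± 0.697. Of 57 autophagy and lysosome genes 2 rose (3.51%) and 3 fell (5.26%), both under the shares of all genes tested (9.70 and 10.1%). The risers were WIPI1 (5.61 ± 0.321 to 16.9 ± 1.14 CPM) and the lysosomal regulator TFEB (3.94 ± 0.78 to 7.04 ± 0.833 CPM). Among the fallers were ATG3, the enzyme that attaches lipid to LC3 (283 ± 6.72 to 83.7 ± 3.27 CPM, log2 fold change -1.75 ± 0.04 (SE), edgeR FDR 7.86e-33), and ATG16L2. Of 33 redox genes 4 rose (12.1%, beside 9.70% of all genes tested) and 2 fell (6.06%, beside 10.1%). ABCC1 and the glutathione reductase GSR led the risers (log2 fold change 1.05 and 1.05). The sestrins SESN3 (721 ± 13.1 to 289.5 ± 1.26 CPM) and SESN1 (167 ± 3.4 to 103 ± 5.32 CPM) fell. Zinc, which prostate epithelium concentrates, is handled by a list in which 3 of 23 genes rose (13%, beside 9.70% of all genes tested) and 2 fell (8.7%, beside 10.1%), and 1 rise was left with library totals only. The importers SLC39A10 and SLC39A7 rose (log2 fold change 0.77 and 0.67), and so did SLC30A7 (0.67). With library totals only SLC39A7 had 0.57 and SLC30A7 0.56, and both were no longer called. Of the same SLC30 family as that last riser, SLC30A10 (10.5 ± 0.485 to 1.36 ± 0.306 CPM) and SLC30A4 (860.2 ± 14.3 to 506 ± 3.06 CPM) fell.

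Growth factor and developmental pathways had strong members in both directions and medians near that of all genes. Of 52 growth factor receptors and PI3K regulators 13 rose (25%, beside 9.70% of all genes tested) and 12 fell (23.1%, beside 10.1%). Their median was 0.07, or -0.03 with library totals only. INPP4B, a phosphatase that restrains PI3K signalling, was at 2.09, 2.52, 2.49 and 2.97 CPM with vehicle and at 20.8, 24, 22.2 and 26.2 CPM with R1881 (log2 fold change 3.21 ± 0.14 (SE), edgeR FDR 2.71e-24). On the insulin side IRS2, an adaptor, rose from 3.22 ± 0.519 to 24.5 ± 2.27 CPM (log2 fold change 2.92 ± 0.14 (SE), edgeR FDR 6.25e-23) and the receptor IGF1R from 65.6 ± 3.68 to 388 ± 18.5 CPM (log2 fold change 2.56 ± 0.04 (SE), edgeR FDR 9.06e-36), while IGFBP5, an IGF-binding protein, fell from 2.07 ± 0.291 to 0.241 ± 0.169 CPM. Within the ErbB family EGFR rose from 60 ± 2.06 to 142 ± 9.05 CPM, and ERBB2 fell from 372 ± 12.3 to 187 ± 7.52 CPM and ERBB4 from 3.0 ± 0.55 to 0.408 ± 0.151 CPM. ROR2, a receptor for Wnt ligands, fell from 3.09 ± 0.2 to 0.157 ± 0.144 CPM (log2 fold change -4.21 ± 0.59 (SE), edgeR FDR 2.22e-12). Of 61 genes of Wnt, Notch, BMP and TGF-beta signalling 13 rose (21.3%) and 15 fell (24.6%). The ligand WNT7B rose from 24 ± 2.16 to 131 ± 5.7 CPM (log2 fold change 2.45 ± 0.06 (SE), edgeR FDR 1.82e-32) and the Notch effector HEY1 from 1.0 ± 0.341 to 8.16 ± 0.47 CPM (log2 fold change 3.02 ± 0.23 (SE), edgeR FDR 3.62e-17), and the ligand WNT2B and the signal transducer SMAD3 fell to 0.236 ± 0.224 and 7.27 ± 0.848 CPM, from 1.26 ± 0.137 and 19.8 ± 1.92. Among frizzled receptors FZD8, FZD5 and FZD1 rose (log2 fold change 2.28, 2.17 and 0.74) and FZD4 and FZD3 fell (-1.14 and -0.94).

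Adhesion, neural and channel genes also moved in both directions. Over all genes tested 9.70% were higher and 10.1% lower. Of 43 genes of adhesion and junctions 7 rose (16.3%) and 12 fell (27.9%), with a median of -0.01. SNAI2, a repressor linked to mesenchymal change, was at 0.261, 0.0763, 0.686 and 0.468 CPM with vehicle and at 23.3, 22.6, 19.9 and 23.9 CPM with R1881. It rose 59.5-fold (log2 fold change 5.89 ± 0.36 (SE), edgeR FDR 5.31e-27). The desmosome protein PKP1 was listed at 0 with vehicle and was at least 10.3-fold higher. The mesenchymal genes VIM (76 ± 1.17 to 42 ± 4.66 CPM) and FN1 (270.1 ± 7.37 to 153 ± 10 CPM) fell, and so did the cadherin CDH26 (18.5 ± 0.824 to 3.12 ± 0.403 CPM, log2 fold change -2.56 ± 0.12 (SE), edgeR FDR 6.00e-23) and the tight junction protein OCLN (55.7 ± 2.01 to 22.5 ± 1.18 CPM). Of 5 fibroblast markers 2 reached a mean of 1 TPM, COL1A1 at 12.7 ± 0.59 TPM with vehicle and 8.44 ± 1.28 TPM with R1881 and COL3A1 at 2.58 ± 0.472 and 0.630 ± 0.193 TPM (SD, n = 4), with DCN at 0 counts, and the sum of the 5 was between 15.3 and 17.1 TPM in vehicle and between 7.39 and 10.2 TPM in R1881 libraries. COL1A2, another of the 5, had at most 2 counts in any library and LUM at most 13. All libraries are of 1 cell line, and a part of these markers in the falls of VIM and FN1 was not tested. Of 39 axon and synapse genes 6 rose (15.4%) and 8 fell (20.5%). The glutamate receptor subunits GRIN3A (1.64 ± 0.521 to 23.8 ± 2.38 CPM) and GRIK1 (3.23 ± 0.938 to 0.381 ± 0.115 CPM) lay at opposite ends. SEMA6D rose to 3.17 ± 0.208 CPM from 0.218 ± 0.221, and the synaptotagmin SYT11 fell to 0.145 ± 0.134 CPM from 0.915 ± 0.357. Of 38 ion channels and pumps 7 rose (18.4%) and 8 fell (21.1%). After TRPM8 came CACNG4 (1.32 ± 0.0974 to 10.7 ± 1.55 CPM), and the fallers were led by SCNN1G and ATP2A3 (log2 fold change -2.22 and -1.89). Of 8 tested genes of the neuroendocrine list 2 rose (25%) and 3 fell (37.5%). The risers were AURKA and EZH2, which are also proliferation genes (log2 fold change 1.55 and 0.72). DDC, which makes dopamine and serotonin, was the most abundant of the fallers and went from 196 ± 4.21 CPM with vehicle to 31.8 ± 2.36 CPM with R1881 (log2 fold change -2.63 ± 0.05 (SE), edgeR FDR 5.26e-36), and POU3F2, a neural factor, fell from 1.2 ± 0.258 to 0.456 ± 0.047 CPM.

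Immune, stress and early response genes are set beside the 9.70% of all genes tested that were higher and the 10.1% that were lower. Of 37 interferon-stimulated genes 3 rose (8.11%) and 8 fell (21.6%, median -0.09). HERC5 and HERC6, neighbouring ubiquitin ligases, rose to 13 ± 0.601 and 15.2 ± 1.34 CPM, from 4.04 ± 0.393 and 6.76 ± 0.59, and the viral RNA sensor IFIH1 and the GTPase GBP2 fell to 4.75 ± 0.216 and 0.929 ± 0.259 CPM, from 11.8 ± 1.55 and 2.18 ± 0.516. Of 21 genes of class I antigen presentation 1 rose, the light chain B2M (90.9 ± 0.694 to 175 ± 7.4 CPM, log2 fold change 0.95 ± 0.03 (SE), edgeR FDR 4.77e-25), and 4 fell (19%), among them HLA-E (16.8 ± 1.41 to 8.18 ± 0.995 CPM, log2 fold change -1.03 ± 0.09 (SE), edgeR FDR 1.33e-12) and MR1. Of 51 p53 targets and apoptosis genes 7 rose (13.7%) and 11 fell (21.6%). The risers BIRC5, also a mitotic protein, and PMAIP1 had log2 fold changes of 1.53 and 1.05, and the pro-apoptotic BMF fell from 74.9 ± 2.79 to 21.1 ± 2.54 CPM (log2 fold change -1.84 ± 0.06 (SE), edgeR FDR 1.14e-26) and the inhibitor of apoptosis BIRC3 from 3.35 ± 0.7 to 0.447 ± 0.276 CPM. Of 33 early response factors 8 rose (24.2%) and 1 fell (3.03%). MAF, a large AP-1 family factor, was at 31.9, 34.1, 28.5 and 30.3 CPM with vehicle and at 413, 411, 408 and 409 CPM with R1881, a 13.1-fold rise (log2 fold change 3.71 ± 0.04 (SE), edgeR FDR 9.94e-44). KLF4 rose from 1.2 ± 0.301 to 9.36 ± 0.74 CPM (log2 fold change 2.98 ± 0.21 (SE), edgeR FDR 3.74e-18), the clock gene PER1 from 12.4 ± 0.766 to 47.1 ± 3.05 CPM, and NR4A2 fell from 2.6 ± 0.399 to 0.48 ± 0.16 CPM (log2 fold change -2.42 ± 0.34 (SE), edgeR FDR 2.12e-09).

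**Figure D3:**
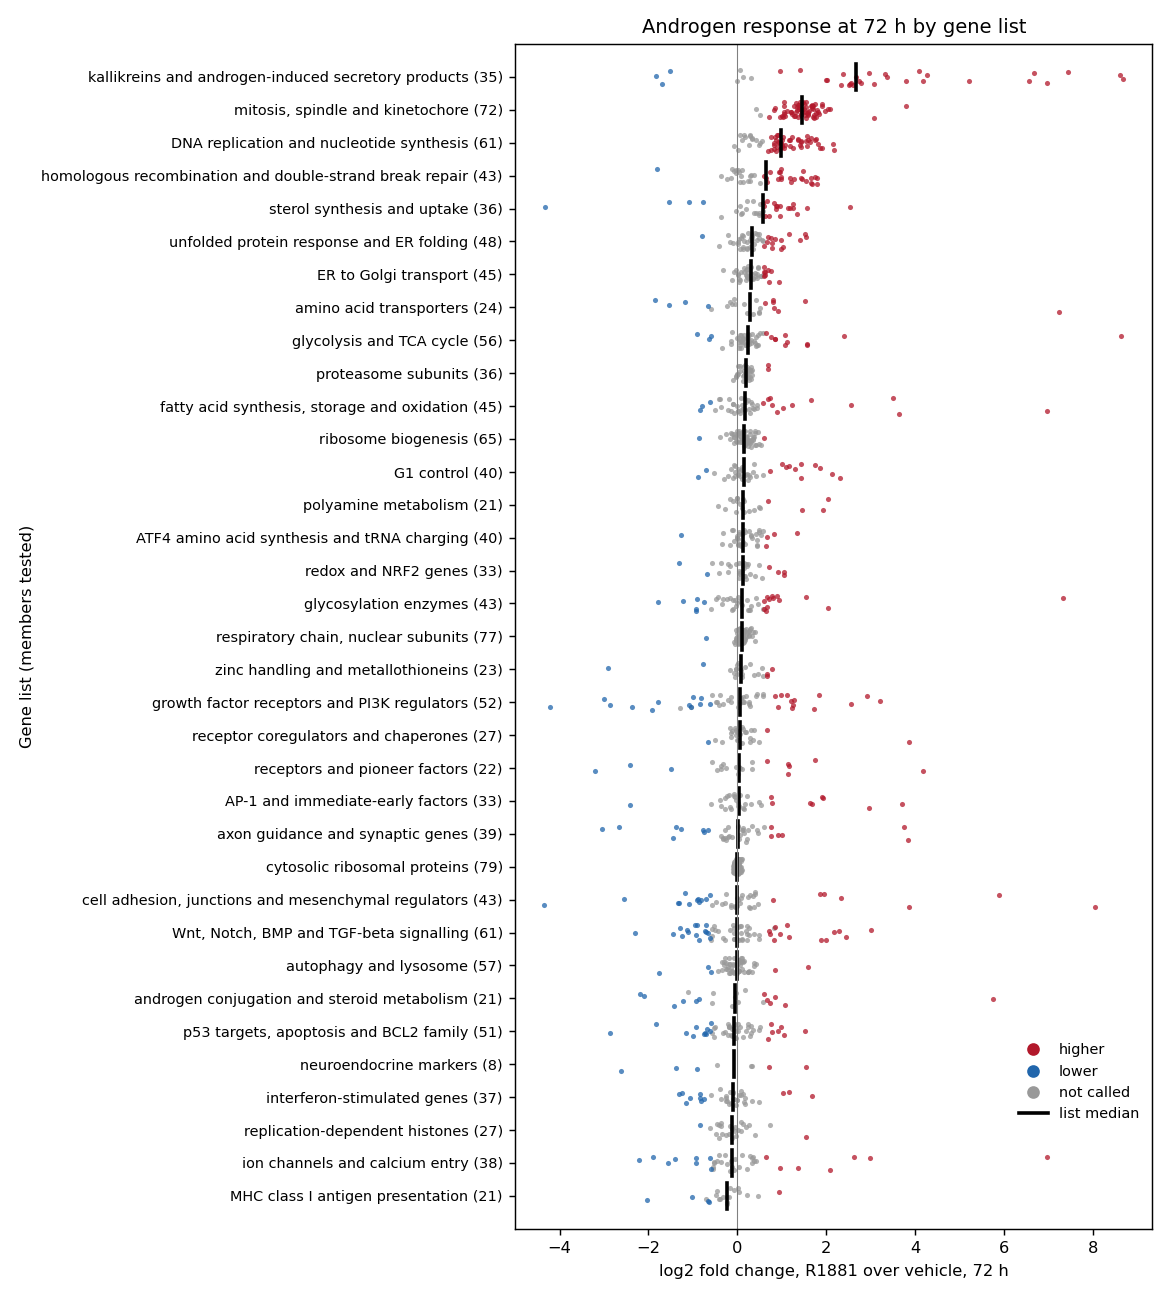
Log2 fold change of R1881 over vehicle at 72 h (x axis) for every tested member of each gene list (rows, number of members tested in parentheses; points, genes; black bars, list medians; vertical scatter is only for display). The list of kallikreins and secretory products, with a median of 2.67, and the mitosis list, with 1.46, lie furthest to the right, and points at the far right include genes near 0 counts with vehicle, whose fitted values are no bounds.

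The calls were unevenly spread over gene types and levels. Of 12812 protein-coding genes 10.6% were higher and 8.94% lower. Long intergenic non-coding RNAs were lower more often than higher, 20.6% against 6.29% of 620 tested (median -0.30), and so were antisense genes, 19% against 5.04% of 833 (median -0.28). These classes are also the rarer ones, with a median vehicle level of 2.34 and 2.33 CPM against 32.7 CPM for protein-coding genes, and reads of an antisense gene and its partner may not have been separated by counting. Protein-coding genes were split into 4 classes of equal size by mean TPM, and 22.9% of the lowest class were called lower and 2.97% of the highest class, whereas 12.5 and 10.2% were called higher. The part of level in the difference between gene types was not tested.

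**Figure D4:**
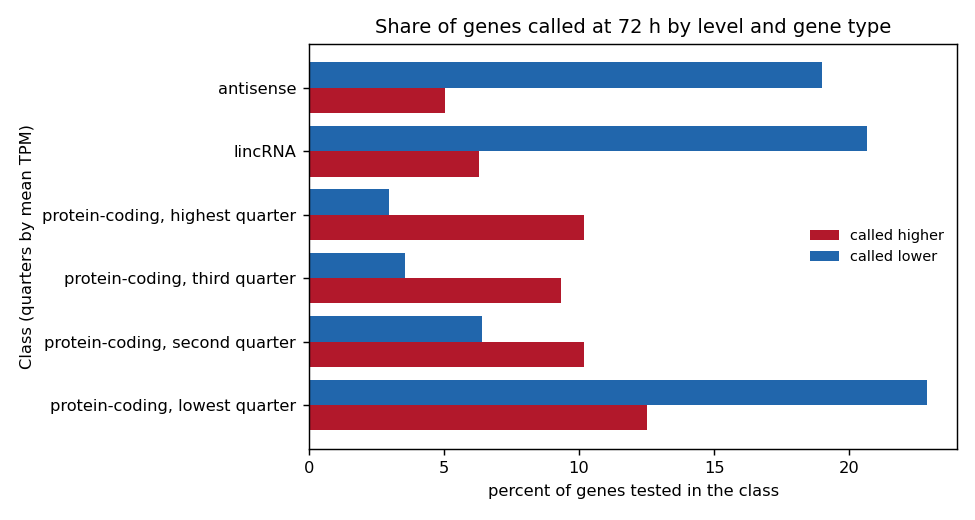
Percent of tested genes called higher (red) and lower (blue) at 72 h for protein-coding genes in 4 classes of equal size by mean TPM, from lowest to highest, and for long intergenic (lincRNA) and antisense non-coding genes. The share called lower drops from 22.9% in the lowest class to 2.97% in the highest, and the non-coding genes lie near the lowest class in that share. The share called higher is below that of every protein-coding class for both, 6.29% for lincRNA and 5.04% for antisense genes.

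The last comparison set the response at 72 h beside that at 24 h, to see which genes had a larger or smaller fold change. The 24 h experiment used a lower R1881 dose and was done apart from the other, so time, dose and experiment cannot be told apart. In a fit of all 28 libraries the androgen effect was higher at 72 h than at 24 h for 95 of 16672 genes (0.570%) and lower for 219 (1.31%). The genes with a lower effect at 72 h included many of the proliferation lists. Of 72 mitosis genes 48 had a lower effect at 72 h and 1 a higher one, and of 61 replication genes 25 and 0. In the same fit the median effect at 24 h was 2.29 for mitosis and 1.49 for replication genes on the log2 scale. The median of the difference, 72 h minus 24 h, was -0.83 and -0.53, so these genes still rose at 72 h but by a smaller fold. A smaller fold can come from a higher level with vehicle as well as from a lower one with R1881. RRM2 was at 6.74, 9.35 and 8.1 CPM with vehicle and at 118, 138 and 130.5 CPM with R1881 in the 24 h libraries, so its androgen effect there was 3.98 and the difference, 72 h minus 24 h, was -1.79 ± 0.11 (SE, log2, edgeR FDR 1.46e-17). R1881 libraries were above vehicle libraries at both times, and the vehicle libraries of 24 h were all below those of 72 h. CDC45 was at 1.71, 1.71 and 1.98 CPM with vehicle and at 24.2, 28.3 and 22.3 CPM with R1881 at 24 h. At 72 h its means were 5.79 CPM with vehicle and 25.9 CPM with R1881. Levels at 24 h and at 72 h were scaled in separate fits. For NCAPD3, the 1 mitosis gene with a higher effect at 72 h, the difference was 0.71 ± 0.07 (SE, edgeR FDR 3.14e-10).

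Other genes had a larger rise at 72 h. ODC1 was at 324, 344 and 334 CPM with vehicle and at 751, 841 and 759 CPM with R1881 at 24 h, and the difference in its androgen effect was 0.82 ± 0.05 (SE, log2, edgeR FDR 3.08e-17). KLF4, MAF, SPDEF and the elongase ELOVL2 also had larger effects at 72 h, by 1.14 ± 0.27, 0.83 ± 0.07, 0.62 ± 0.06 and 1.73 ± 0.36 (SE, log2). UGT2B17 and UGT2B10 fell less at 72 h than at 24 h, with differences of 0.62 ± 0.05 and 0.69 ± 0.11. KLK2 and KLK3 had differences of -0.01 ± 0.26 and 0.43 ± 0.23 (SE, edgeR FDR 0.981 and 0.235), which were not called. Of the sterol list 1 gene, the sterol carrier STARD4, had a higher effect at 72 h and 0 a lower one, and the median difference was 0.07.

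**Figure D5:**
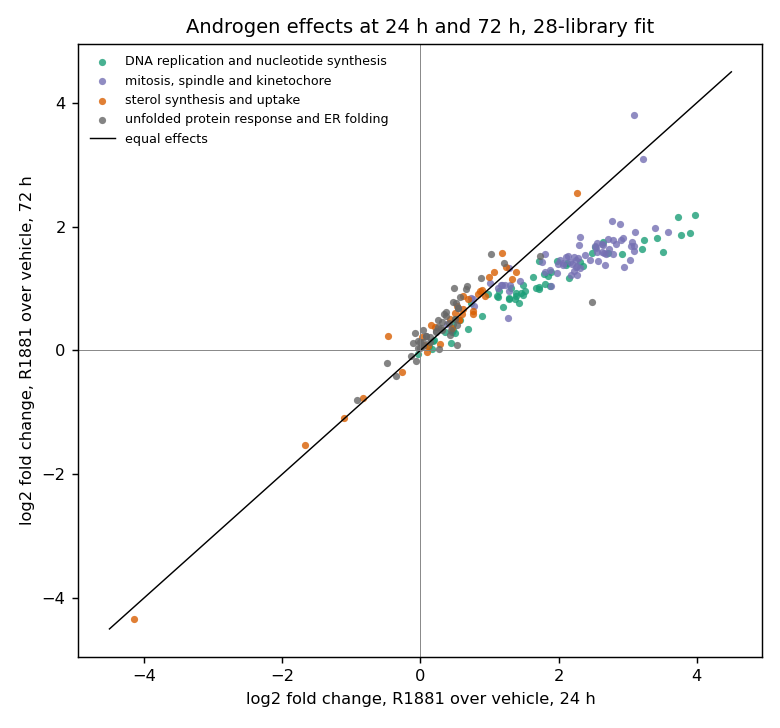
Androgen effect at 24 h (x axis) and at 72 h (y axis), as log2 fold changes of R1881 over vehicle from a fit of all 28 libraries, for the tested genes of 4 lists (points); the line marks equal effects. Mitosis and replication genes lie mostly below the line, with median differences of -0.83 and -0.53 (72 h minus 24 h), against 0.07 for sterol and 0.13 for folding genes.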

How the data were processed

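Total RNA of LNCaP cells was turned into directional libraries and sequenced. Per the submitters' processing notes and the deposited table, the authors trimmed reads with cutadapt 2.8, aligned them with STAR 2.7.2b (human build GRCh38.p13 named) and counted them per gene with featureCounts of Subread 2.0.3. The table the authors deposited holds counts of which 16.9% of values above 0 have a fractional part, and it was handled as a table of expected counts. Whether counting used strand, and the annotation release, are not given in the sources used here. Counts were rounded to whole numbers. Genes were kept with filterByExpr (minimum count 10, minimum total 15), scaled by TMM and fitted with edgeR 4.0.16 (R 4.3.3, quasi-likelihood, 1 coefficient per group, no replicate block) over the 16 libraries of the 72 h experiment. FDR is the Benjamini-Hochberg adjusted p over all genes tested, two-sided. The difference between 72 h and 24 h effects came from the same model over all 28 libraries. CPM were scaled with TMM factors, and TPM used summed exon lengths of GENCODE release 29, which also gave positions on GRCh38 and gene types and matched 15650 of 16074 genes by name. Motifs were searched on both strands of RefSeq promoters, matched by symbol to 10968 tested genes. A fold against a group under 3 counts in every library was computed against the largest CPM that 3 counts stand for in that group's libraries (0.261 with vehicle, 0.314 with R1881), which covers counting error only.

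Genes were named by a rule: 10 established targets and factors, the 8 highest and 8 lowest called protein-coding genes by log2 fold change (5 CPM or more on average in whichever group was higher), the 5 largest rises and falls in mean CPM, and up to 2 called members at each end of every list (1 CPM or more there). Members of lists and families named beyond that rule were chosen after their values were seen. The gene lists and comparisons were chosen with earlier results of these data known. Some genes that the rule names are not reported here. Scripts were tested on simulated data. Alternatives were DESeq2 1.42.0 size factors and its Wald test, library totals, other filters and thresholds, other sets of libraries, a replicate block and leaving out each replicate.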

Additional observations from a re-analysis of the deposited data

Results flagged for a closer look

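In 14 of 254 groups of 4 libraries of the named genes, 1 library stood apart from the other 3 by more than the 95% limit of Dixon's test, and chance alone gives about 1 in 20. In vehicle libraries these values were STEAP4 at 0.078, ALPK2 at 0.153, NCAPD3 at 91.6, CCNG2 at 143, MPC2 at 113, GRIN3A at 0.858, SEMA6D at 0.546 and WIPI1 at 5.13 CPM. In R1881 libraries they were GOLGB1 at 397, DDX18 at 82.9, HERC5 at 12.1, CDH26 at 2.51, SESN3 at 291 and PMAIP1 at 7.9 CPM.

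The androgen effect of 25 named genes differed between 72 h and 24 h in the test of the difference itself (edgeR, FDR under 0.01 and fold over 1.5), as log2 values of 72 h minus 24 h. Transcription factors were among those with a higher value at 72 h, with SPDEF at 0.62, KLF4 at 1.14, MAF at 0.83 and TFEB at 0.83. Enzymes and transport genes with a higher value were ODC1 at 0.82, ELOVL2 at 1.73, SEC24D at 0.70, UGT2B17 at 0.62 and UGT2B10 at 0.69, and the others were NCAPD3 at 0.71, HERC6 at 0.71 and WNT7B at 0.64. Replication, repair and mitosis genes had lower values, with RRM2 at -1.79, CDC45 at -1.57, E2F7 at -1.57, RAD54L at -1.63 and BIRC5 at -0.85. The same held for CCDC80 at -0.94, SI at -0.65, IL1RN at -1.12, ACP3 at -0.59, IFIH1 at -0.90, CACNG4 at -1.22, SLC30A10 at -1.02 and PMAIP1 at -0.85. CCDC80, SI, IL1RN, ACP3, IFIH1 and SLC30A10 had fallen at 72 h, so a lower value there is a deeper fall. The experiments also differed in dose, which cannot be told apart from time.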

How the results depend on the processing

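The counts of called genes moved by over 1.5 times only where the thresholds were changed. With both limits relaxed, to FDR under 0.05 and no fold limit, 5096 genes were higher and 4888 lower, and with a fold over 2 the counts were 855 and 784. A test against a fold of 1.5 itself (edgeR's glmTreat, FDR under 0.05) gave 1191 higher and 951 lower. For the difference between 72 h and 24 h, FDR under 0.05 with no fold limit gave 1077 higher and 1132 lower. All other alternatives stayed within 1.5 times of the main counts: DESeq2's Wald test gave 1519 and 1477 genes at 72 h, no filter on low counts 1771 and 1859, a minimum count of 50 1218 and 1089, and the 8 libraries alone 1504 and 1561. Leaving out 1 replicate gave between 1535 and 1555 higher and between 1588 and 1639 lower genes, and for the difference between 79 and 96 higher and between 191 and 229 lower. Of 133 genes named by rule, 130 kept direction and call under all 15 alternatives that left the thresholds of a call unchanged. The exceptions were PIAS1 (0.57), SLC39A7 (0.57) and MPHOSPH10 (0.51) with library totals only, and MPHOSPH10 (0.58) without vehicle replicate 1. Changed thresholds were not among the 15. With a fold over 2, named genes under that fold, such as FOLH1 (-0.95) and B2M (0.95), would lose their call. The least abundant genes rest on few counts, which limits what can be called there.

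No shared effect of the replicate numbers was seen. Deviations of same-numbered vehicle and R1881 libraries correlated between -0.0539 and 0.0155, none of 4 over 0.1, and 1 vehicle library correlated best with its own number. Such values cannot show whether the samples were paired by design. The replicate block left 1554 genes higher and 1619 lower at 72 h, with 98 higher and 220 lower for the difference. Replicates of a group differed by more than counting noise in all 12 pairs (chi-square per gene from 1.21 to 1.87), so none was counted as a repeat of another.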

Other observations

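Gene families defined by symbol are set beside the 9.70% of all genes tested that were higher and the 10.1% that were lower. All 6 HOX genes called, of 15 tested, fell (40%, median -0.56), HOXC13 from 24.4 to 12.4 CPM and HOXC9 from 8.85 to 3.19 CPM. HOX genes set body position in development, and several of them have antisense partners that also fell and may share reads. Of 20 collagens 9 fell (45%) and 3 rose (15%), with a median of -0.56. COL5A2 fell from 20.8 to 6.29 CPM and COL18A1 from 47.7 to 30.5 CPM, while COL12A1 rose from 1.95 to 6.42 CPM. Keratins of simple epithelium rose, KRT8 from 592 to 998 CPM, KRT18 from 347 to 630 CPM and KRT19 from 0.235 to 7.43 CPM, and KRT80 fell from 2.75 to 0.398 CPM. KRT8 and KRT18 have many pseudogene copies that could take part of their reads.

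Of 20 tubulins 7 rose (35%) and 0 fell, or 6 and 1 with library totals only. TUBA1B rose from 402 to 809 CPM and TUBB4B from 350 to 667 CPM, beside TUBA3D and its paralog TUBA3E. Tubulin genes are close copies of each other, so the split of their reads is uncertain. Of 33 kinesins 13 rose (39.4%) and 5 fell (15.2%). The mitotic motors KIF20A (10.7 to 45.6 CPM) and KIF22 (38.7 to 143 CPM) led the risers. KIF5B, a cargo motor, was among the fallers, from 845 to 489 CPM. Of 230 solute carriers 37 rose (16.1%) and 25 fell (10.9%, near the 10.1% of all genes tested). Their median was 0.06 (-0.04 with library totals only). Of 452 zinc finger genes 19 rose (4.2%, beside 9.70% of all genes tested) and 24 fell (5.31%, beside 10.1%). More of them were lower than higher, with 312 of 452 below 0 and a median of -0.13 (-0.23 with library totals only), and at FDR under 0.05 with no fold limit 191 were lower and 65 higher.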
